A study of Mus musculus with 8 samples.

Results

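Autosomal gaps are stretches of chromosomes 1 to 19 where no deposited list of H2A.X domains placed a domain on either side. Gaps were chosen by the authors' domain calls: 1 kb bins of each chromosome, from the first base after 3 Mb to the furthest end of any domain, were kept where they lay in no domain of the 6 lists, neighbours were merged, and stretches of 10 kb or more were retained. Every value on their flanks comes from the same calls and is a description with no test. In all, 1725 gaps were kept of 2164 such stretches of any length, beside the 25499 domains of the lists. H2A.X is a histone H2A variant that takes the place of ordinary H2A in some nucleosomes and is phosphorylated beside DNA breaks. The protein is abundant in embryonic stem (ES) cells, where it also sits in chromatin without damage. A gap is a place where neither library of any pair was called higher, and it says nothing of how much H2A.X is there, since the lists hold no values outside domains.

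The lists came from native chromatin immunoprecipitation of micrococcal nuclease digests with an anti-H2A.X antibody, and each sets a pair of mouse ES cell libraries against each other. In serum medium, DNMT1 KO cells of strain 129S6/C57B6 were paired with their control, and Tdg KD and TKO cells of strain 129/Ola each with a wild-type control. The labelled samples among these were grown with 15% fetal bovine serum. DNMT1 maintains DNA methylation through cell division, TDG is a DNA glycosylase that removes oxidised methylcytosine, and TKO is the submitters' own term, which they do not spell out. Wild-type 129S6/C57B6 cells in 2i, a medium named for a pair of kinase inhibitors and known for low DNA methylation, were paired with serum cells, and cells in PKCi medium (5 µM Gö6976, a protein kinase C inhibitor) and in SRCi medium (1.5 µM CGP77675, a Src kinase inhibitor, with 3 µM CHIR99021, a GSK3 inhibitor) were each paired with 2i cells. Each of the 8 labelled samples is the only sample of its label, so nothing here has a replicate check and no p-value is given. The TDG and TKO controls, both wild type in serum, entered only their own lists and were not compared. Read depth is unknown. The DNMT1 control and the serum cells are known here only from the names of their lists, and the origin of these libraries was not analysed here. A side is the library of a pair in which a domain was marked as enriched. The lists mark it only as the first or second sample, and which condition is first was taken from the order in the list's name, so both sides of a list would swap if that order were not the one used. Where 2i is compared with more than 1 condition, its sides are called 2i over serum, 2i over PKCi and 2i over SRCi.

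The gaps added up to 86.07 Mb, or 3.56% of the 2415 Mb examined. The stretches under 10 kb held a further 1840 kb. Bins with a domain in exactly 1 list made up 6.83% of the autosomes, bins with domains in 3 lists 29.2%, and bins with domains in all 6 lists 3.91%. The lists differed widely in what they left free. The SRCi list left 16.1% of the autosomes without a domain and the PKCi list 18.5%, against 50.9% for DNMT1, 58.0% for serum and 2i, 68.9% for TDG and 70.8% for TKO. Gaps therefore made up 22.1% of the free length of the SRCi list and 19.3% of that of the PKCi list, and between 5.03% and 7.0% of that of the other lists. The PKCi and SRCi lists, which both use 2i, were jointly free over 310 Mb, and gaps took 27.7% of it.

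Gap length had a median of 32 kb with quartiles at 20 and 54 kb, and a mean of 49.9 kb. Gaps under 50 kb numbered 1216, or 70.5% of all. The long end carried much of the length, since 145 gaps of 100 kb or more, 8.41% of the number, held 30.3 Mb, or 35.2% of the bases. Near the threshold the counts were level: 40 stretches were 10 kb long and 39 were 11 kb, while 30 were 9 kb and 36 were 8 kb. The shortest stretches were the most frequent, with 84 of a single bin.

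**Figure D1:**
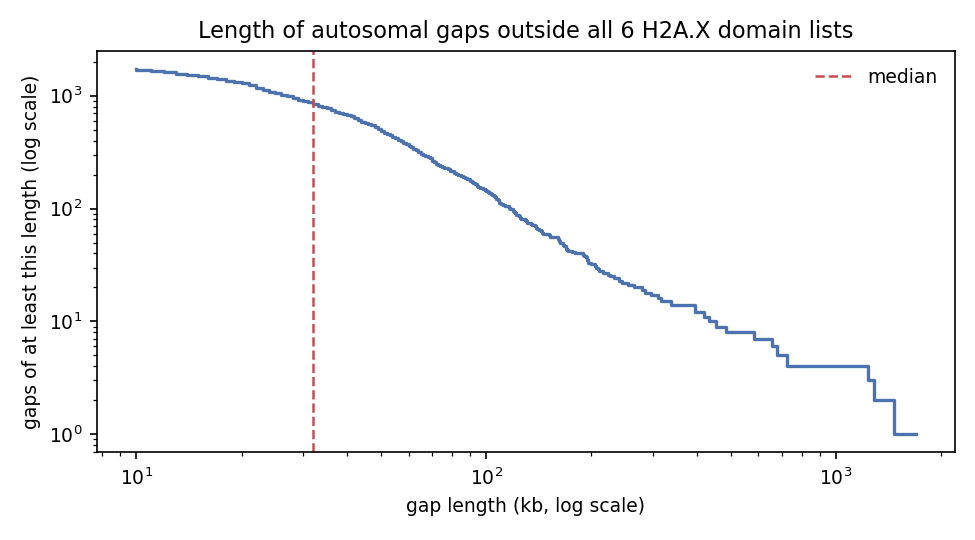
Number of autosomal gaps (y axis, log scale) at least as long as the length on the x axis (kb, log scale); the dashed line is the median of 32 kb. The curve is shallow up to about 50 kb and then falls steeply, with 145 gaps at 100 kb or more and 4 at 1 Mb or more.

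The 10 longest gaps held 9.24 Mb, or 10.7% of all gap bases. Coordinates are those of the mm9 build, and what genes lie there was not analysed here. Chromosome 14 carried 6 of them, chromosome 12 carried 2, and chromosomes 13 and 17 carried 1 each. Several were neighbours. On chromosome 14 the gaps from the start of the span to 4285000 (1285 kb), 4519001 to 5981000 (1462 kb), 6084001 to 7315000 (1231 kb) and 7819001 to 8495000 (676 kb) stood in a row. The 5495 kb that they span, a window picked after its values were seen, held 14 gaps that filled 97.2% of it. The TKO list had no domain there, and the other lists covered 0.455% to 2.64% of it. Low coverage follows from the share in gaps, since no list has a domain in a gap.

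On chromosome 12 the longest gap of all, at 23256001 to 24945000 (1689 kb), followed that at 22087001 to 22811000 (724 kb). Together with 4 shorter ones they filled 98.0% of the 2858 kb window from 22087001 to 24945000. DNMT1, TDG and TKO lists held no domain in this window, where the gaps left little room for any list. A second row on chromosome 14 had gaps at 42547001 to 43031000 (484 kb) and at 43138001 to 43720000 (582 kb), and gaps filled 98.3% of 42239001 to 43720000. A score is the authors' signed value for a domain, with no stated unit, and both sides of a list can share a sign. At the start of the 1462 kb gap the PKCi and SRCi domains both scored -1.61, where the autosomal medians are 4.96 for PKCi and 6.12 for SRCi, and the serum domain scored 0, where the serum median is -7.58. The other long gaps stood apart, at chromosome 13, 92137001 to 92791000 (654 kb), and chromosome 17, 6458001 to 6911000 (453 kb). The gap on chromosome 17 began at 2i domains of all 3 lists that name 2i. They scored -65.5 over serum, 67.4 over PKCi and 30.8 over SRCi, where the medians of these sides are -20.2, 15.1 and 15.8.

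Elsewhere the longest gap of a chromosome ranged from 88 kb on chromosome 8, at 93296001 to 93384000, to 395 kb on chromosome 10, at 12174001 to 12569000. Chromosome 4 had one of 315 kb at 85721001 to 86036000, and its edges were both formed by DNMT1 control domains. On chromosome 6 it was 310 kb, at 37517001 to 37827000, with a 2i over serum domain at each edge. The 278 kb gap of chromosome 19, at 32165001 to 32443000, began at a TDG control domain and ended at a 2i over serum domain. Chromosome 5 had 245 kb at 132598001 to 132843000, between domains of SRCi at the start and PKCi at the end. The 99 kb gap of chromosome 11, at 60387001 to 60486000, was met by DNMT1 KO, PKCi, SRCi, TDG KD and TKO control domains at its start.

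Gaps of 134 to 194 kb were the longest on chromosomes 1 (57866001 to 58017000), 2 (60590001 to 60784000), 3 (3032001 to 3201000), 7 (15873001 to 16007000), 15 (35688001 to 35848000) and 18 (69571001 to 69750000). Chromosome 9 had 109 kb at 79986001 to 80095000. A 2i over serum domain lay at 1 or both edges of those on chromosomes 1, 3, 7, 9 and 15. That on chromosome 2 had an SRCi domain at each edge.

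The start of the span was touched by 4 gaps, on chromosomes 12, 14, 16 and 19, of 16, 1285, 232 and 93 kb. None of the 6 lists had a domain before 3 Mb on these chromosomes, so the rule alone sets where they begin. The gap of chromosome 16, which reached to 3232000, ended at a place where all 6 lists had a domain, namely DNMT1 KO, 2i over serum, 2i over PKCi, 2i over SRCi, TDG control and TKO.

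Gaps were spread unevenly over the chromosomes. They took 10.4% of chromosome 14, 7.96% of chromosome 12, 7.95% of chromosome 19 and 7.28% of chromosome 13. These 4 chromosomes held 498 gaps and 41.0% of gap length on 17.2% of the span. The least was 0.425% of chromosome 11, with 12 gaps, then 0.854% of chromosome 8, with 32, and 1.26% of chromosome 7, with 53. The remaining 12 autosomes lay between 2.04% and 4.77%. By number, chromosome 19 led with 15.8 gaps per 10 Mb and chromosome 13 followed with 13.8. Without the 10 longest gaps chromosome 14 came to 5.72% and chromosome 12 to 5.92%, below chromosomes 19 and 13 at 7.95% and 6.72%. For contrast, X had 11 gaps of 10 kb or more, the longest 54 kb, on 0.136% of its span.

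The lists that closed gaps differed by chromosome. On chromosome 11 the TKO control side covered 97.1% of the span, and leaving the TKO list out raised the gap share to 1.70%. On chromosome 8 the TDG list did so, with 4.91% without it, and on chromosome 6 as well, where 2.69% became 6.13%. On both of these the 2i sides of the 3 lists that name 2i each covered 52.1% to 69.4% and the PKCi and SRCi sides at most 3.70%. Chromosome 19 was held back most by the serum and 2i list, without which gaps took 12.9%. Its free share was high for the PKCi list (36.4%) and the SRCi list (30.6%), where the 16 autosomes other than 6, 8 and 19 had 8.83% to 22.6%.

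**Figure D2:**
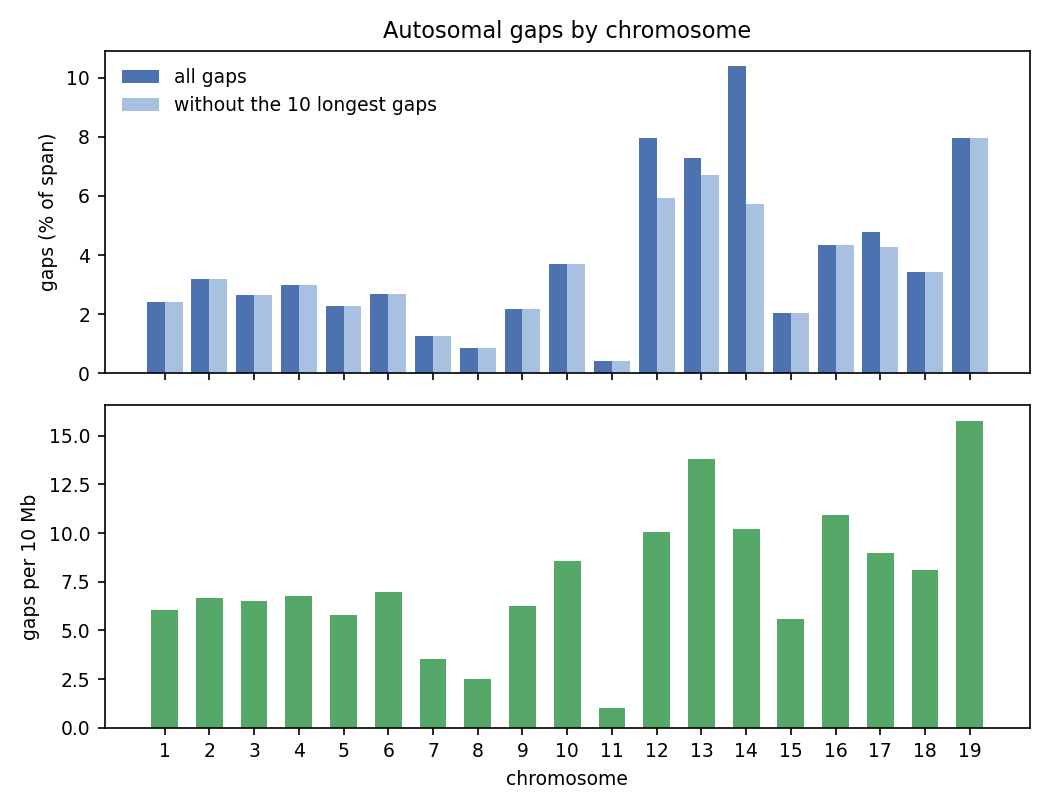
Upper panel, share of each chromosome's span in gaps (percent), with all gaps and without the 10 longest; lower panel, gaps per 10 Mb. Chromosomes 12, 13, 14 and 19 stand highest in the upper panel, chromosome 14 at 10.4% with its longest gaps and 5.72% without them, and chromosome 11 is lowest in both.

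Along the chromosomes, gaps took 7.08% of the first 10% of the span, nearest the centromere in the acrocentric mouse chromosomes, and 5.62% of the next. They took 1.90% of the last 10%, and between 2.06% and 4.08% of each part in between. The 10 longest gaps accounted for part of this, since without them the first 10% held 4.96%. Without chromosomes 12 and 14 the first 10% held 4.93% and the last 10% held 1.69%, a setting chosen after the values were seen.

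Many gaps came in groups. The median distance between neighbouring gaps was 280 kb, with quartiles at 33 and 1455 kb, and 1000 gaps (58.0%) had another within 100 kb. Only 221 had none within 1 Mb. The widest separation was 26.4 Mb on chromosome 11, from 88459001 to 114875000. In 513 cases the covered stretch between 2 gaps was 50 kb or less, with a median of 15 kb. A 2i over serum domain lay in 419 of these islands, and 351 (68.4%) held nothing else. No other side made up more than 14 islands alone. Only short domains can form an island, and of the 8473 autosomal domains of 50 kb or less 57.0% were 2i over serum and 13.4% serum, so the limit on length favours 2i over serum. By length, 2i over serum covered 78.7% of the islands, SRCi 11.6%, DNMT1 KO 9.99% and PKCi 7.65%, while the serum side covered 2.15% and the DNMT1 control side 1.56%.

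The same side was the commonest border of gaps. Of 3446 gap edges, leaving out the 4 at the start of the span, 2894 (84.0%) were formed by a domain of a single list, and 13 by domains of all 6. A 2i over serum domain formed 1643 edges, or 47.7%, and did so alone at 1485. SRCi domains formed 926 (26.9%), PKCi domains 661 (19.2%) and DNMT1 KO domains 300 (8.71%). The remaining 8 sides formed 24 to 164 edges each. Serum domains, from the list that holds the most domains, formed 135. Set beside each side's share of the domains of all 6 lists, 2i over serum made 37.8% of the 4345 meetings of a domain with a gap edge and held 24.3% of the 24620 autosomal domains. For SRCi the shares were 21.3% and 12.7%, for PKCi 15.2% and 10.1%, for DNMT1 KO 6.90% and 5.97%, and for the serum side 3.11% and 17.2%. An edge lies beside a domain by definition, so these shares describe which lists bound the gaps and test nothing.

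**Figure D3:**
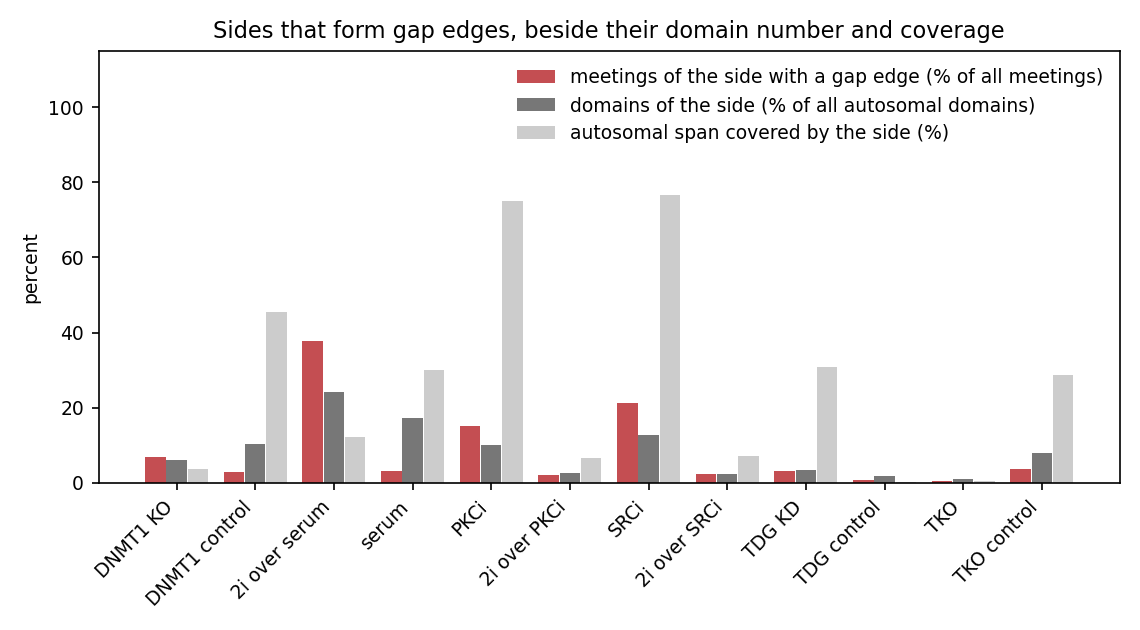
For each of the 12 sides, its share of the 4345 meetings of a domain with a gap edge (red), its share of the 24620 autosomal domains (dark grey) and the share of the autosomal span it covers (light grey), all in percent. 2i over serum has 37.8% of meetings against 24.3% of domains and 12.1% of the span, and serum 3.11% against 17.2% and 29.9%.

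In 1246 gaps (72.2%) a 2i over serum domain formed at least 1 edge, and in 397 (23.0%) it formed both. In 587 it formed 1 edge and a PKCi or SRCi domain the other, and in 239 a PKCi or SRCi domain formed both. Shorter gaps met 2i over serum domains more often, with 78.7% of those of 10 to 19 kb and 62.8% of those of 100 kb or more. The domains concerned were 1173, or 19.6% of the autosomal 2i over serum domains. Those at gap edges were 24 kb long at the median and the rest 12 kb, with median scores of -19.2 and -20.6. On the 16 autosomes other than 6, 8 and 11, the lengths were 22 and 9 kb and the scores -19.1 and -21.3.

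Coverage on either side of the gaps changed with distance. The bin at an edge lies in a domain by definition. Further out, bins that fall in a neighbouring gap were counted too, and no side can cover them. Since 58.0% of gaps had another within 100 kb, low coverage near edges is partly set by the rule. Serum domains covered 3.92% of bins right at the edge, 18.1% at 100 kb and 23.6% at 1000 kb, below their 29.9% of the autosomes throughout. Over the same distances 2i over serum covered 47.7%, 18.6% and 11.6%, with 12.1% over all autosomes. Without chromosomes 6, 8 and 11 the values for 2i over serum were 46.0%, 14.2% and 6.90%, with 4.93% over those autosomes, so at 1000 kb the side lay above its share there and below it over all autosomes. DNMT1 KO domains covered 8.71% at the edge and 11.4% at 20 kb, then 3.71% at 1000 kb, near their 3.67% of the autosomes, while DNMT1 control domains covered 3.57% at the edge and 35.0% at 1000 kb, with 45.4% over all autosomes. PKCi domains covered 19.2% at the edge, 54.6% at 100 kb and 72.5% at 1000 kb, with 75% over all autosomes, and SRCi domains 26.9%, 59.4% and 73.2%, with 76.6% over all autosomes. TDG KD covered 4.03% at the edge and 21.3% at 1000 kb, against 30.8% over all autosomes, and TKO control 4.76% and 23.4%, against 28.8% over all autosomes.

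Some sides with little coverage covered more at gap edges than over all autosomes. TDG control domains covered 1.07% at the edge against 0.277% over all autosomes, and TKO domains 0.696% against 0.409%. These values rest on 37 and 24 edges. By number of domains the direction was the opposite. TDG control made 0.852% of meetings with a gap edge and held 1.73% of autosomal domains, and TKO 0.552% and 1.14%. The 2i sides over PKCi and SRCi covered 2.73% and 2.87% at the edge, less than their 6.53% and 7.28% over all autosomes. Without chromosomes 6, 8 and 11 they covered 2.12% and 2.00% at the edge against 0.300% and 0.309% over those autosomes, so the direction by coverage turns with the chromosomes used. By number over all autosomes, 2i over PKCi made 2.16% of meetings and held 2.72% of domains, and 2i over SRCi 2.28% and 2.27%. No share by number is given without chromosomes 6, 8 and 11, so an excess at edges there was not tested.

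**Figure D4:**
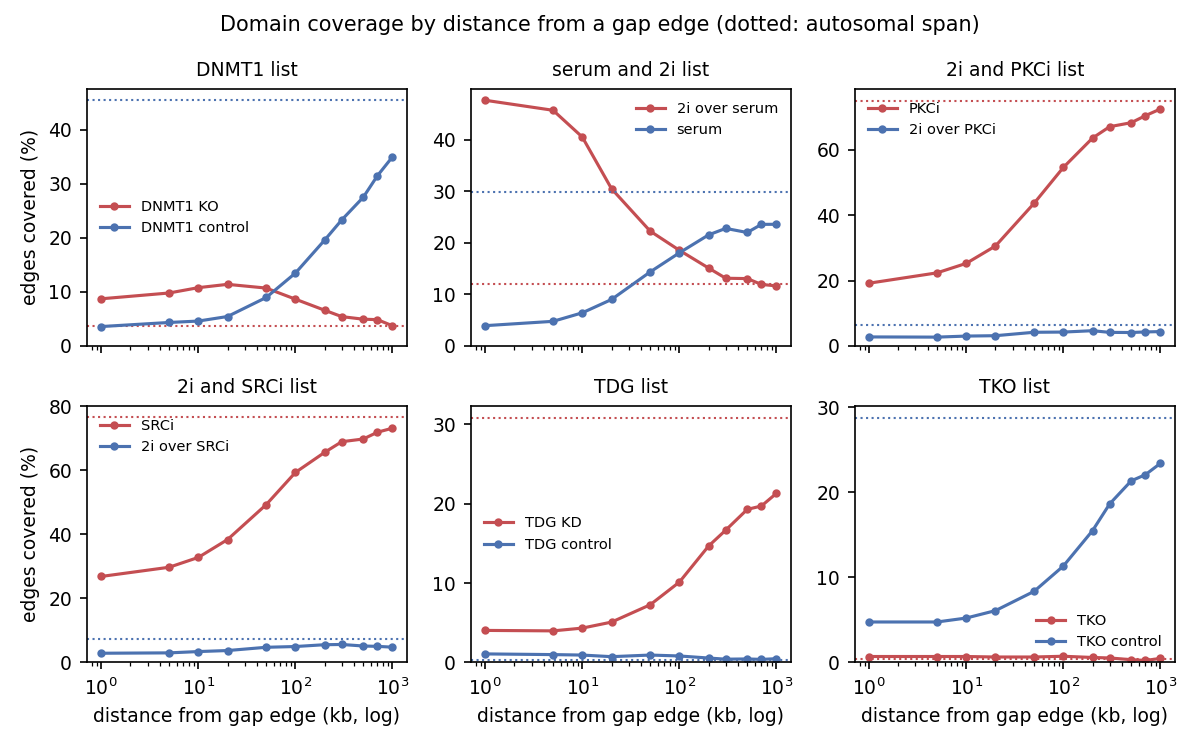
Percent of gap edges at which a side has a domain (y axis) by distance from the edge (x axis, kb, log scale), in 1 panel per list; dotted lines give the side's share of the autosomal span. 2i over serum drops from 47.7% at the edge to 11.6% at 1000 kb while serum, PKCi, SRCi, DNMT1 control, TDG KD and TKO control are higher at 1000 kb than at the edge. Bins that fall in a neighbouring gap are counted, and no side can cover them.

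Distances to the nearest domain differed by list. The nearest domain of the serum and 2i list adjoined the gap in 1320 of 1725 gaps, and from a gap edge the median distance was 0 kb with an upper quartile of 57 kb. It was 28 kb in the SRCi list, 44 kb in the PKCi list, 174 kb in the DNMT1 list, 554 kb in the TKO list and 972 kb in the TDG list. In the TDG list, 585 gaps (33.9%) had no domain within 1 Mb, and 1 edge was 30456 kb from the next. For the TKO and TDG lists the flanking side thus often lay far off, and many gaps shared a flank.

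The sides that flank gaps were then read from the nearest domain of each list before and after the gap, and set beside all spaces between neighbouring domains of that list. Gaps with a domain on 1 edge only stay in the 1725, while every space lies between domains. They numbered 23 in the DNMT1 list, 5 in serum and 2i, 6 in PKCi, 5 in SRCi, 71 in TDG and 52 in TKO. In the serum and 2i list, 1005 gaps (58.3%, Wilson 95% interval 55.9% to 60.6%) had 2i over serum on both edges, against 43.2% of all spaces and 47.1% of their length. Serum stood on both edges of 154 gaps (8.93%, 7.67% to 10.4%), against 25% of all spaces and 19.9% of their length. On at least 1 edge, 2i over serum was present at 91.0% of gaps and 75% of spaces, and serum at 41.5% of gaps and 56.8% of spaces, while 58.6% and 41.4% of the list's domains were of these sides. With flanks counted only within 50 kb of the gap, serum was present at 28.4% of the 1576 gaps with a flank that near. No matching share of spaces is given for this limit, in this list or the others. Over all gaps, a share for at least 1 edge is set beside the same share of spaces, since a share of domains is counted over single domains. The intervals cover counting error only, and gaps that lie in the same space are not independent.

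In the DNMT1 list, KO flanks were more frequent at gaps than among spaces, and control flanks less frequent. KO domains stood on both edges of 402 gaps (23.3%, Wilson 21.4% to 25.4%), against 16.5% of all spaces and 14.8% of their length. Control domains stood on both edges of 526 (30.5%, 28.4% to 32.7%), against 43.6% of spaces and 42.7% of their length. A KO domain was found on at least 1 edge at 68.9% of gaps and 56.4% of spaces, and a control domain at 75.9% of gaps and 83.5% of spaces, while 36.6% and 63.4% of domains were of these sides. Among the 818 gaps with a DNMT1 flank within 50 kb, counting only such flanks, KO was found at 69.1% and control at 37.8%. That order is the reverse of the one over all gaps. The limit also changes which gaps are counted, so an effect of distance was not tested.

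In the TDG list, KD domains stood on both edges of 629 gaps (36.5%), against 52.6% of spaces, but the length of those spaces came to 39.1%. Control domains did so at 315 gaps (18.3%), against 15.1% of spaces and 16.3% of their length. By length, then, gaps had flanks close to those of TDG spaces at large. On at least 1 edge KD was found at 80.3% of gaps and 84.9% of spaces, and control at 60.8% of gaps and 47.4% of spaces, or 60.9% of the length of spaces, while 66.8% and 33.2% of domains were of these sides. Only 357 gaps had a TDG flank within 50 kb, and counting only such flanks KD was found at 72.3% of them and control at 30.3%.

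PKCi stood on both edges of 1423 gaps (82.5%) and 2i over PKCi of 151 (8.75%), against 76.7% and 17.7% of spaces. SRCi did so at 1468 (85.1%) and 2i over SRCi at 149 (8.64%), against 83.8% and 12.4% of spaces. By length of spaces the shares were 67.7% for PKCi, 26.5% for 2i over PKCi, 69.4% for SRCi and 24.8% for 2i over SRCi. Of the 138 gaps with both 2i sides on both edges, 129 were on chromosomes 6 and 8, which together had 134 gaps. On at least 1 edge PKCi was found at 91.1% of gaps and 82.3% of spaces, and 2i over PKCi at 17.3% of gaps and 23.3% of spaces, while 78.8% and 21.2% of domains were of these sides. SRCi was found at 91.3% of gaps and 87.6% of spaces, and 2i over SRCi at 14.7% of gaps and 16.2% of spaces, while the domains were 84.8% and 15.2%. By length of spaces the shares for at least 1 edge were 73.5% for PKCi and 32.3% for 2i over PKCi. They were 75.2% for SRCi and 30.6% for 2i over SRCi. Without chromosomes 6, 8 and 11, 2i over PKCi was found at 10.4% of gaps and 2i over SRCi at 7.54%. No share of spaces without these chromosomes is given, so these values cannot be set against the 23.3% and 16.2% of all spaces. The 2 sides covered 0.300% and 0.309% of the autosomes that remained.

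In the TKO list, TKO stood on both edges of 35 gaps (2.03%) and TKO control of 1433 (83.1%), against 2.14% and 86% of spaces, so the flanks were near those of the list as a whole. These 1433 gaps lay in only 613 spaces of the list. On at least 1 edge TKO was found at 15.1% of gaps and 14% of spaces, and TKO control at 96.8% of gaps and 97.9% of spaces, while 12.3% and 87.7% of domains were of these sides.

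**Figure D5:**
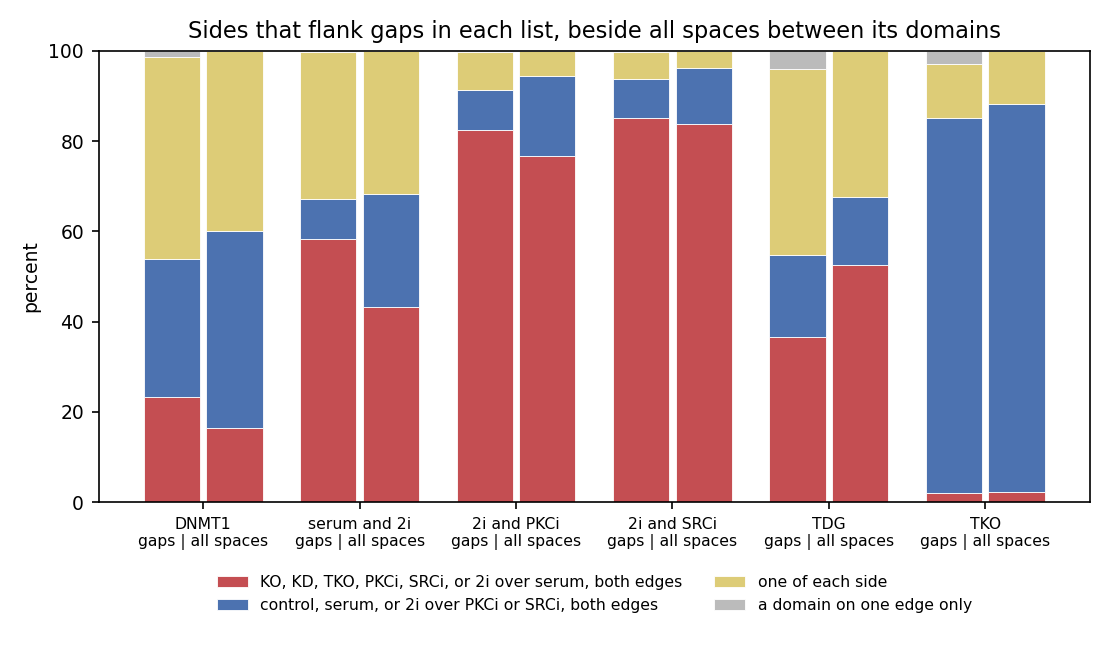
Sides flanking the 1725 gaps (left bar of each pair) and all spaces between neighbouring autosomal domains of the list (right bar), in percent; colours give the sides on the edges, as in the legend. 2i over serum on both edges takes 58.3% of gaps against 43.2% of spaces, and the TKO bars are nearly alike.

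Flank patterns over the 6 lists were varied, with 177 kinds. PKCi and SRCi both flanked 1396 gaps (80.9%) on both edges, and 723 (41.9%) had 2i over serum on both edges as well. The commonest kind, with 147 gaps (8.52%), had these 3 sides and TKO control on both edges, with a change of side across the gap in the DNMT1 and TDG lists. The next, with 104, differed only by DNMT1 control on both edges. Among all spaces of their own lists, PKCi stood on both edges of 76.7% and SRCi of 83.8%. No share of spaces or other positions is given for combined patterns or for changes of side. Whether these counts are particular to gaps was thus not tested. A list with a domain on 1 edge only was counted as unchanged. Sides changed across the gap in no list for 316 gaps, in 1 list for 615, in 2 for 553 and in 5 for 7, and in all 6 for none. The longest of these 7 were chromosome 14, 42239001 to 42524000 (285 kb), chromosome 12, 114686001 to 114739000 (53 kb), and chromosome 17, 39884001 to 39921000 (37 kb). At the first, the DNMT1 flanks lay 832 and 1196 kb off and the TKO flanks 324 and 1196 kb. Its adjoining serum, PKCi and SRCi domains scored 3.77, -5.65 and -5.65, opposite in sign to the medians of these sides. At the last, the flanking DNMT1 KO domain, 54 kb off, scored -152 and the 2i over PKCi domain, 58 kb off, 88.4. KO domains had a median of -6.56 and 2i over PKCi domains 15.1.

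Flanks also differed with gap length. Among gaps of 10 to 19 kb, 20 to 49 kb, 50 to 99 kb and 100 kb or more, 2i over serum stood on both edges of 62.1%, 59.7%, 53.3% and 51.7%. Serum did so at 5.20%, 8.37%, 12.4% and 13.8%, and TDG KD at 32.4%, 36.2%, 38.2% and 44.8%. The number of gaps in these classes was 404, 812, 364 and 145. A gap can only lie in a space at least as long, and no shares of spaces of like length are given. Whether these trends are particular to gaps was thus not tested.

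Bins just beyond the rule, covered by exactly 1 list, came to 164.9 Mb. SRCi supplied 23.7% of them, 2i over serum 22.5%, PKCi 15.4% and TDG KD 14.8%. In the same order, these sides cover 76.6%, 12.1%, 75% and 30.8% of the autosomes. Relative to its own length, DNMT1 KO had the largest part alone, at 14% of its bases, followed by 2i over serum at 12.7%, and no other side exceeded 3.27%. The serum side had 0.0112% alone.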

How the data were processed

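H2A.X was profiled in 8 labelled ES cell samples, 1 per label. The DNMT1 control and serum libraries enter only through their lists, and which side is which rests on the order in the lists' names. The submitters' processing notes name Bowtie2 2.0.6 and mm9; for the domain caller, its settings and any depth scaling, the sources used here state nothing. The deposited lists give each domain on a 1 kb grid with its side and 2 scores; both scores are the authors' own, without a stated unit, and were used only within a list. Depth is unknown.

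Gaps, flanks, distances and coverage were computed from bins with Python 3.11.15, numpy 2.4.6 and pandas 2.3.3, and Wilson 95% intervals with scipy 1.17.1. The gap and flank search matched a bin by bin scan in 20 of 20 simulated sets. No test between conditions was possible, and none was made. Named regions were the 10 longest gaps, the longest of each chromosome if over 50 kb, those at the start of the span, the 2 chromosomes with the highest and the 2 with the lowest gap share, and the 3 gaps with most lists changing side, ties going to the longer; other chromosomes and the windows were picked after their values were seen. The members, lists and rules were chosen with earlier results of these data known. Coordinates are mm9, counted from 1. Genes and sequences at the gaps were not analysed here, as no mm9 annotation or genome was used.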

Additional observations from a re-analysis of the deposited data

How the results depend on the processing

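Of 114 alternative values, 68 stayed within 1.5 times the reported count or length, or within the Wilson interval of the reported share. Intervals of shares of the span treat bins as independent and are narrow, so small moves pass them. The share of the autosomes in gaps, 3.56%, was 3.62% with a minimum of 5 kb, 3.32% with 20 kb and 2.26% with 50 kb. The last setting left 509 gaps of 54611 kb with a median of 72 kb, fewer by construction. The share was 3.50% with the span starting at the first domain, 3.98% without chromosomes 6, 8 and 11, and 3.80% with domains of no signal counted as gap. Leaving out a list can only add gap length, and gave 4.52% without DNMT1, 5.14% without serum and 2i (median length 50 kb), 4.60% without PKCi, 5.21% without SRCi, 4.56% without TDG and 4.12% without TKO.

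With flanks within 50 kb only, the same side stood on both edges at 63.2% for DNMT1, 70.5% for serum and 2i, 83.3% for TDG and 78.3% for TKO, among gaps with both flanks that near. On at least 1 edge the shares were 37.8% for DNMT1 control, 89.5% for 2i over serum, 28.4% for serum, 89.6% for PKCi, 13.5% for 2i over PKCi, 12.1% for 2i over SRCi, 72.3% for TDG KD, 30.3% for TDG control and 87.9% for TKO control. Without chromosomes 6, 8 and 11, serum and 2i had the same side on both edges at 64.4%, and on at least 1 edge serum stood at 44.7%, PKCi at 98.5%, 2i over PKCi at 10.4%, SRCi at 98.7% and 2i over SRCi at 7.54%. A minimum of 20 kb moved none of the flank shares past their intervals.

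Mean distances from a gap edge, 338 kb for DNMT1, 69.2 kb for serum and 2i, 96.7 kb for PKCi, 70.8 kb for SRCi, 2281 kb for TDG and 888 kb for TKO, exceeded the medians. Neighbouring gaps of at least 20 kb lay 458.5 kb apart at the median. In settings chosen after seeing the data, 2i over serum formed 46.0% of gap edges without chromosomes 6, 8 and 11 and the first 10% of chromosomes held 4.96% without the 10 longest gaps; without chromosomes 12 and 14 the first and last 10% held 4.93% and 1.69%. Where construction does not give it, the cause was not tested. No paired analysis was possible because no label has more than 1 sample. Sequencing depth is not known, so no limit from it was derived.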
